A study of Homo sapiens with 12 samples.

Results

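The SNORD116 array is a run of repeated small nucleolar RNA (snoRNA) genes on chromosome 15, taken here as the plus strand from 25303327 to 25360000 of hg19 (56674 nt). Its members were all nucleotides listed within those limits in any of 12 iCLIP libraries. They numbered 2050 of the 1162690 listed positions of the series, at 1644 distinct nucleotides. The cells were H9, an established line of human embryonic stem cells, in a wild-type (WT) and a P-KO form, both irradiated with UV light at 400 mJ per square centimetre. Antibodies against RBFOX2 (FOX2), TDP43 or hnRNP M recovered the crosslinked RNA, with 2 libraries for each protein and genotype, which the submitters call biological replicates. The source label of the P-KO cells carries the name SPA. Neither the altered allele nor the number of clones is described in the sources, all cells were of 1 line, and p-values measure only the spread between these libraries.

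SNORD116 snoRNAs are C/D box snoRNAs of the Prader-Willi region, expressed from the paternal chromosome and cut out of the introns of a long host transcript, SNHG14, whose exons and introns repeat with the snoRNA genes. Pairs of neighbouring snoRNAs can also stay at the ends of an excised intron, which gives a sno-lncRNA, a long noncoding RNA capped by a snoRNA at each end and known to carry many FOX2 sites. The SPA RNAs, which lie just before the array, begin with a snoRNA and end in a poly(A) tail. Of the proteins, FOX2 regulates splicing from GCAUG elements, TDP43 prefers GU repeats, and hnRNP M is another nuclear regulator of splicing.

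In the RefSeq gene table of GRCh38.p14, used only for names and order, 30 genes carry the SNORD116 name, and 1 other gene starts between them. Each listed position carried an Ensembl transcript name and, where intronic, an intron number. Of the 2050 positions, 1985 (96.8%) were intronic and 65 exonic, and 1877 (91.6%) were assigned to ENST00000549804.2, whose intron numbers serve here as the count along the array. The files do not pair these transcripts with gene names, so no intron is matched here to a single snoRNA or sno-lncRNA. The first listed positions of consecutive introns of that transcript lay a median of 2197 nt apart over 17 pairs, with a range from 1036 nt (introns 12 to 13) to 5404 nt (introns 4 to 5). Of introns 1 to 29, 22 had a listed position and 7 had none. Intron 4 had the widest listed span, 4178 nt from 25310172 to 25314349.

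A listed count covers 11 nt, so positions were reduced to windows at least 11 nt apart, kept from the highest count down, and their counts are called window counts. Libraries held between 58191 and 648651 window counts, and the hnRNP M libraries were the shallowest. Position lists hold only values above a minimum, so an empty stretch is described as listed at 0. On the minus strand of the array, 0 positions were listed in any of the 12 libraries. The files hold no RNA level, so less array RNA, fewer cells with that RNA and fewer contacts per RNA cannot be told apart.

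All 3 proteins had array windows in WT cells, and in P-KO cells the array was nearly empty. FOX2 had 1795 and 3287 window counts in the WT libraries, or 0.821% and 1.14% of each library, against 2 and 115 for P-KO, or 0.000861% and 0.0177%. TDP43 had 246 and 385 window counts in WT (0.118% and 0.136%), against 2 and 19 for P-KO (0.00116% and 0.00649%). hnRNP M had 326 and 610 in WT (0.529% and 0.494%) and had no listed array position in P-KO. Every P-KO library lay under both WT libraries of its protein.

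FOX2 took the largest share in WT, 0.980% ± 0.225 (SD, n = 2) against 0.00930% ± 0.0119 in P-KO, a ratio of means of 105. The TDP43 share was 0.127% ± 0.0125 in WT and 0.00383% ± 0.00377 in P-KO, a ratio of 33.3. For hnRNP M it was 0.512% ± 0.0248 in WT, with no ratio against the lists at 0. Over the 3 proteins the share, with 1 count added, fell by 7.04 on the log2 scale (exact permutation test, two-sided, genotype permuted within protein, 216 arrangements, p = 0.00926, the smallest it can give). FOX2 P-KO replicate 2 was the deepest library and held most of the P-KO counts. Without it the share fell by 7.67, and without FOX2 P-KO replicate 1 it fell by 6.41, on the log2 scale.

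**Figure D1:**
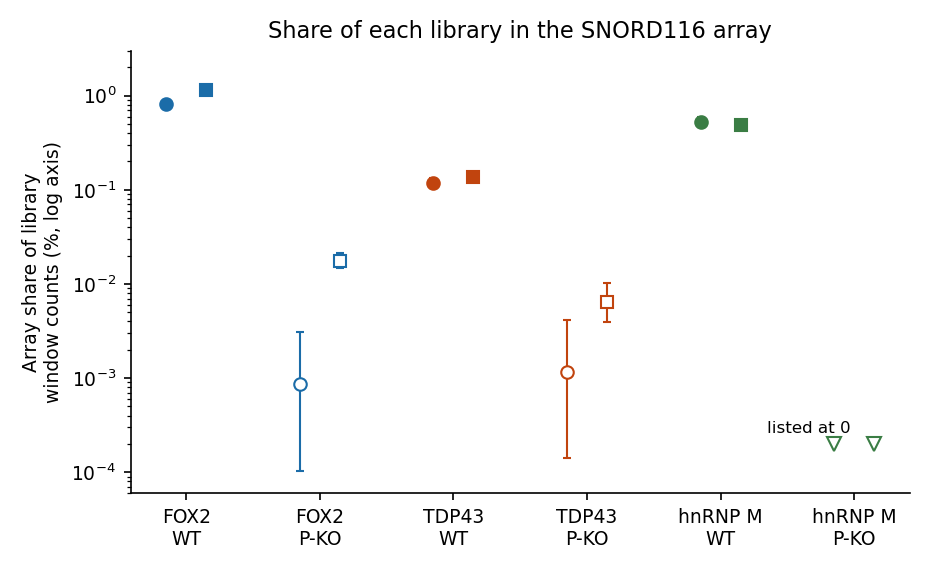
Share of each library's window counts inside the SNORD116 array (%, log axis), 1 symbol per library (circle, replicate 1; square, replicate 2; filled, WT; open, P-KO), with exact 95% Clopper-Pearson intervals that cover counting error only. WT libraries lie between 0.118% and 1.14%, P-KO libraries at or under 0.0177%, and triangles at the bottom stand for the P-KO libraries of hnRNP M, listed at 0.

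Fitted as 10 kb bins of the whole table, the array covers 6 bins, and 5 of them were lower in P-KO over the 3 proteins, where 0.123% of the 10563 bins tested passed in either direction (edgeR quasi-likelihood test, Benjamini-Hochberg adjusted p under 0.05). The bin at 25310001 held 1470 and 2684 FOX2 counts, 54 and 163 TDP43 counts and 123 and 251 hnRNP M counts in WT, while the P-KO libraries held 0 and 102, 2 and 3, and 0 and 0 (edgeR adjusted p = 1.57e-06). At 25330001 FOX2 held 179 and 236 WT counts, TDP43 33 and 50 and hnRNP M 137 and 237, while the P-KO libraries held 2 and 2, 0 and 0, and 0 and 0 (edgeR adjusted p = 6.13e-08). The first bin, at 25300001, which also takes in positions before the array, held 95 and 296, 80 and 60, and 37 and 104 in WT, in the same order, and 5 counts in all in P-KO, from TDP43 replicate 2 (edgeR adjusted p = 9.74e-07). These 3 bins passed in all 19 alternatives that tested them.

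The remaining bins held less. At 25320001 FOX2 held 52 and 88 counts, TDP43 63 and 47 and hnRNP M 29 and 48 in WT, with 0 and 11, 0 and 8, and 0 and 0 among P-KO libraries (edgeR adjusted p = 0.00197). The last bin, at 25350001, held 17 and 16, 3 and 37, and 9 and 4 in WT and was listed at 0 in every P-KO library (edgeR adjusted p = 0.00548). Both calls were lost in some of the fits that left out 1 library. Every fit that left out 1 library also tested more bins, 19923 to 21512 against 10563. The part of the library itself in a lost call was therefore not separated from that change. At 25320001 the adjusted p by edgeR was 0.0512 to 0.188 without either FOX2 WT library or without replicate 1 of FOX2 or TDP43 P-KO, and at 25350001 it was 0.0512 to 0.489 without FOX2 WT replicate 1, TDP43 WT replicate 2 or any of the 4 FOX2 and TDP43 P-KO libraries. The bin at 25340001, with 10 and 13, 13 and 28, and 0 and 8 counts in WT and 5 in P-KO, did not pass (edgeR adjusted p = 0.533).

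Within single proteins fewer bins passed. For FOX2, 1 of the 6 bins was lower in P-KO (background 0.0189%): that at 25300001 (edgeR adjusted p = 0.0245), whose call was lost, at adjusted p of 0.08 to 1, without any of the 8 FOX2 and TDP43 libraries. The FOX2 bin of most counts, at 25310001, did not pass in that fit (edgeR adjusted p = 0.336), with 102 counts in P-KO replicate 2 against 0 in replicate 1. For TDP43, 0 of 6 passed (background 0.0284%), although 5 of the 6 had an unadjusted p under 0.05 by edgeR, as did 219 of all 10563 bins, and DESeq2 called 1. For hnRNP M, 2 of 6 passed (background 0.0473%), those at 25310001 and 25330001 (each with an edgeR adjusted p of 0.0253), and both calls were lost, at adjusted p of 0.059 to 0.638, in 10 of the 12 fits that left out 1 library, the exceptions being the hnRNP M WT libraries. With the array as 1 feature, an alternative chosen after the data had been seen, edgeR called the common effect (-6.73, log2; adjusted p = 1.83e-06) and hnRNP M (0.0161), and did not call FOX2 (0.445) or TDP43 (1). The interaction test of protein and genotype called 0 of 10563 bins by edgeR, with 524 at an unadjusted p under 0.05.

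By intron, the P-KO difference was clearest in intron 4, the intron that held most FOX2 signal. FOX2 counts there were 1349 and 2500 in WT against 0 and 94, TDP43 counts 50 and 151 against 2 and 3, and hnRNP M counts 98 and 180 against 0 and 0 in the P-KO libraries. Its common effect was -6.14 ± 0.73 (log2, SE; edgeR adjusted p = 8.78e-08). Each SE given here was worked back from the log2 value and its F statistic, and is approximate. Of the 17 array labels tested, 7 passed over the 3 proteins, where 0.166% of the 8425 labels of the whole table did, all 7 lower in P-KO. The others were intron 15 (edgeR adjusted p = 4.2e-05), intron 3 (9.27e-05), intron 14 (0.00403), intron 1 (0.00609), intron 2 of ENST00000551077.1 (0.0223) and intron 2 (0.0305). The fit takes whole labels, and that of intron 1 reaches outside the array. Its WT counts outside were 44 and 51 for FOX2, against 14 and 45 inside. For hnRNP M they were 9 and 51 against 0 and 17, and for TDP43 0 and 7 against 4 and 4. Introns 3, 4 and 15 passed in all 20 alternatives. Fitted log2 values rest on edgeR's prior count where a group is listed at 0 and are no bounds.

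For 2 of the 7 the call was lost in some of the fits that left out 1 library. Those fits also tested more labels, 13769 to 14357 against 8425, and the part of that change was not separated. The adjusted p of intron 2 by edgeR was 0.0576 to 0.698 without FOX2 WT replicate 2 or TDP43 WT replicate 2. That of intron 2 of ENST00000551077.1 was 0.0664 to 0.196 without FOX2 WT replicate 2, FOX2 P-KO replicate 1 or hnRNP M WT replicate 2. Labels of that transcript overlap intron 4 of ENST00000549804.2, and the same nucleotide carried different labels in different libraries at 7 positions. With the array labels merged onto 1 transcript, an alternative chosen after the data had been seen, that label no longer passed (edgeR adjusted p = 0.601) and intron 16 did (0.029), so 6 of the 7 labels were shared. Without hnRNP M WT replicate 1, the count of labels called rose from 7 to 11.

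Intron 4 was also the label that passed within each protein. For FOX2, introns 4, 15 and 3 passed (edgeR adjusted p = 0.000337, 0.0319 and 0.038; background 0.0712%). The intron 4 call was lost only without FOX2 P-KO replicate 1 among the fits that left out 1 library (adjusted p 0.189), while introns 15 and 3 were lost without any FOX2 library (0.207 to 1 and 0.0506 to 1), intron 3 also without either TDP43 WT library. None of the 3 FOX2 calls held without a filter, with at least 20 counts asked for or by number of windows, where FOX2 called 0 labels, DESeq2 kept 2 of the 3 and robust dispersion 2. TDP43 passed in intron 4 alone (edgeR adjusted p = 0.00656; background 0.0475%), lost at 0.0665 to 0.192 without TDP43 WT replicate 2 or either TDP43 P-KO library, and also lost with DESeq2, without a filter on low counts, with at least 20 counts asked for and by number of windows (up to 1). hnRNP M passed in introns 4 and 15 (edgeR adjusted p = 5.33e-06 and 0.0386; background 0.0593%), and intron 15 was lost at 0.056 to 0.917 in 7 of 12 fits, without either library of FOX2 WT, TDP43 P-KO or hnRNP M P-KO, or TDP43 WT replicate 2. Neither hnRNP M call held with at least 20 counts asked for or by number of windows, and 1 of them held without a filter. The tests of labels within single proteins were added after the data had been seen.

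Along the array, FOX2 gathered at the start, hnRNP M was split between the start and the middle, and TDP43 had the largest share at the end. In 3 equal lengths of the array, the first held 85.8% and 89.3% of FOX2 array counts in the WT libraries, 54.5% and 57.9% of TDP43 counts and 46.3% and 52.0% of hnRNP M counts. The middle held 13.1% and 9.86% in FOX2, 39.0% and 26.0% in TDP43 and 50.9% and 47.4% in hnRNP M. The last held 1.11% and 0.882% in 6 and 8 windows of FOX2, 6.50% and 16.1% in 5 and 10 windows of TDP43, and 2.76% and 0.656% in 1 window of each hnRNP M library. For each of the 3 lengths but the last, the FOX2 libraries did not overlap those of the other 2 proteins. Within a protein pair, 2 libraries against 2 cannot reach an exact p under 0.05, so these are descriptions.

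**Figure D2:**
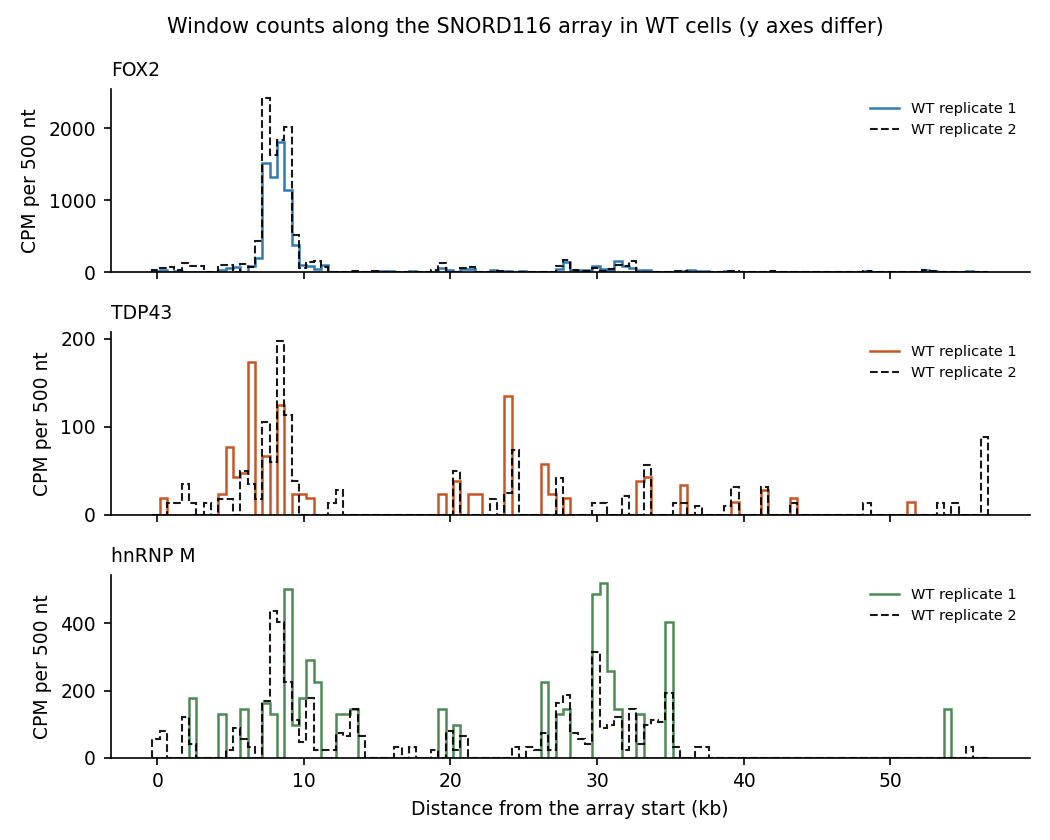
Window counts per 1000000 of the library (CPM) in 500 nt bins of the WT libraries against distance from the array start (kb), 1 panel per protein with its own y axis (solid, replicate 1; dashed, replicate 2). FOX2 forms 1 block within the first 10 kb, while hnRNP M also rises in the middle of the array.

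The introns at the start of the array, 1 to 3, carried modest counts for all 3 proteins. Intron 1, whose label also covers positions before the array, had 14 and 45 FOX2 counts inside the array, 4 and 4 TDP43 counts, and 0 and 17 hnRNP M counts. Intron 2 had 0 and 94, 0 and 22, and 11 and 20 counts in the same order of libraries, so it was seen in 1 library each of FOX2 and TDP43. Intron 3 had windows in all 6 WT libraries, with 53 and 111 FOX2 counts, 76 and 34 TDP43 counts and 17 and 25 hnRNP M counts. It held 30.9% of array counts in TDP43 WT replicate 1 and 8.83% in replicate 2, against 2.95% and 3.38% for FOX2.

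Intron 4 held most of the FOX2 signal of the array. Its share of array counts was 75.2% and 76.1% in FOX2, 20.3% and 39.2% in TDP43 and 30.1% and 29.5% in hnRNP M. Among all labels of the library it ranked 2 and 3 by counts in the FOX2 WT libraries, 482 and 129 in TDP43 and 24 and 23 in hnRNP M. The exonic label of ENST00000551077.1, which lies within the same span, had 18 and 32 FOX2 counts and none for the others. Intron 2 of that transcript had 88 and 140 FOX2 counts, 4 and 4 TDP43 counts and 0 and 21 hnRNP M counts.

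From intron 5 to intron 13 the counts were low. Intron 5 was mainly an hnRNP M intron, with 25 and 43 counts, against 0 and 4 for FOX2 and 0 and 8 for TDP43. Intron 6 was listed for FOX2 alone, at 4 and 3 counts, and intron 7 had 6 counts in FOX2 replicate 1 and 8 in hnRNP M replicate 2. Intron 9 was the third intron with windows in all 6 WT libraries, at 20 and 47, 13 and 14, and 15 and 16 counts for FOX2, TDP43 and hnRNP M. Intron 10 had 18 and 36 FOX2 counts, 10 and 0 TDP43 counts and 0 and 8 hnRNP M counts, and intron 11 had 9 and 5, 28 and 7, and 0 and 4. Intron 13 had 17 and 0 TDP43 counts and 14 and 19 hnRNP M counts, and FOX2 was listed there only in P-KO replicate 2, with 3 counts. These last counts are too few for any order between proteins.

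A further group of windows lay in introns 14 to 17, where hnRNP M was strong. Intron 14 had 49 and 88 FOX2 counts, 0 and 12 TDP43 counts and 17 and 59 hnRNP M counts. In intron 15 hnRNP M had 87 and 82 counts, 26.7% and 13.4% of its array counts, FOX2 had 79 and 65 (4.40% and 1.98%) and TDP43 0 and 8. Intron 16 had 0 and 56, 8 and 0, and 8 and 29. The label intron 6 of ENST00000546682.1, whose listed span from 25335343 to 25336643 lies beside intron 16, held 32 further FOX2 counts in replicate 1. Intron 17 was listed at 0 for FOX2 in both WT libraries, with 9 and 13 TDP43 counts and 25 and 60 hnRNP M counts.

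After intron 17 the array thinned out. Intron 18 had 19 and 8 FOX2 counts, 7 and 7 TDP43 counts and 0 and 8 hnRNP M counts. Introns 19, 21 and 23 had at most 13 counts in any library, and hnRNP M was listed at 0 in all 3. TDP43 had 3 and 9, 10 and 13, and 0 and 4 counts there, and FOX2 had 0 and 4, 0 and 5, and 3 and 3. Intron 28 had 8 and 0 FOX2 counts and 3 and 4 TDP43 counts. Inside the array, intron 29 held 29 counts in TDP43 replicate 2 and 0 in replicate 1, 3 and 0 for FOX2 and 9 and 4 for hnRNP M. Outside the array the same label held 34 TDP43 counts in WT replicate 1 and 9 in replicate 2, so both TDP43 WT libraries had windows under it. The longest stretches with no position in any WT library lay here, from 25346724 to 25351665 (4942 nt) and from 25351868 to 25354985 (3118 nt).

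Exonic signal was rare in the array. Exonic labels made up 2.17% and 2.10% of FOX2 array counts in WT, against 10.4% and 12.6% of the whole libraries, and 0% and 3.9% of TDP43 counts, against 15.8% and 20.3%. For hnRNP M they made up 0% and 1.15%, against 5.15% and 11.8%. The whole-library shares take in every position without an intron number, with mitochondrial and ribosomal ones not set aside. Exon lengths were not compared, so whether exons of the array held less than their length would give was not tested. The exonic label of ENST00000549804.2 had 11 FOX2, 15 TDP43 and 7 hnRNP M counts inside the array, each in replicate 2 alone. That of ENST00000546682.1 had 9 and 21 FOX2 counts and none for TDP43 or hnRNP M in WT. Besides the 25 labels with a window in at least 2 WT libraries, 10 had a window in 1 WT library.

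**Figure D3:**
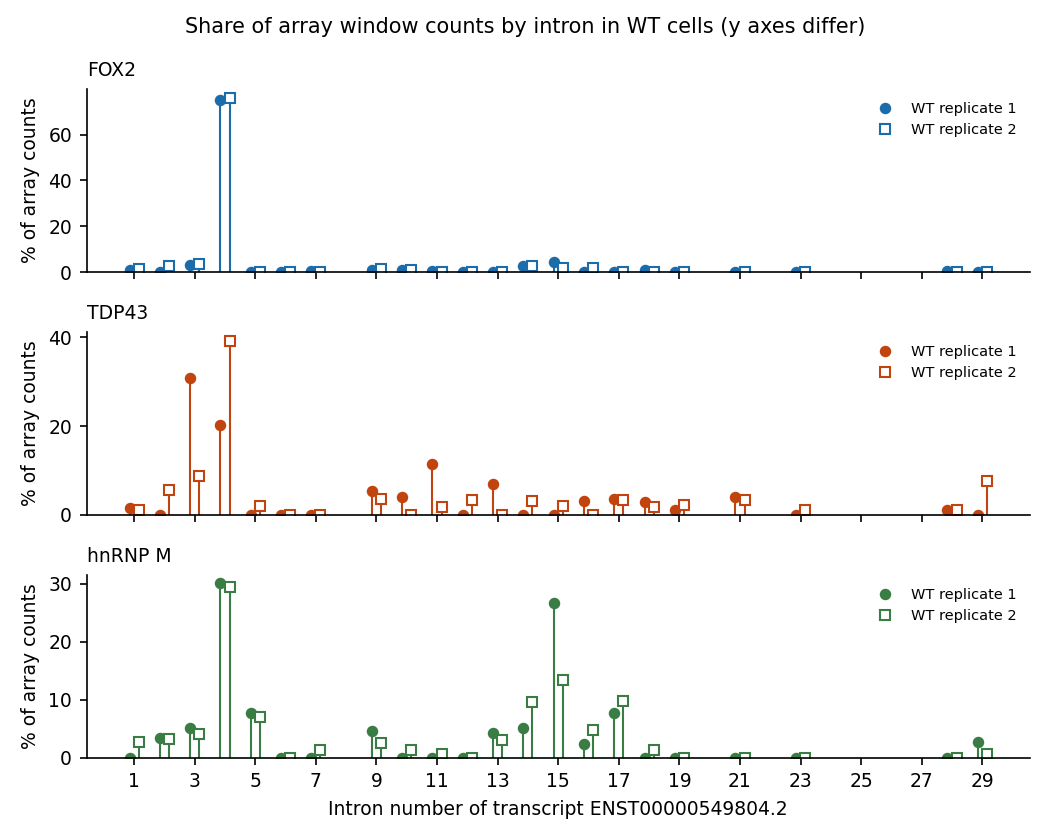
Share of array window counts (%) by intron of ENST00000549804.2 in the WT libraries, 1 panel per protein with its own y axis (filled circle, replicate 1; open square, replicate 2); introns without a listed position carry no symbol. Intron 4 holds 75.2% and 76.1% for FOX2, while hnRNP M has a further peak at intron 15, with 26.7% and 13.4%.

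FOX2 was denser than elsewhere in 1 stretch of intron 4, from 25310501 to 25312500 (2000 nt), where each of 4 bins of 500 nt held at least 200 counts in both FOX2 WT libraries. This stretch was defined after its values were seen, and it carries no test. It held 1266 and 2282 FOX2 counts in WT, 70.5% and 69.4% of the array, in 57 and 75 windows that covered 31.4% and 41.3% of its length. FOX2 P-KO replicate 2 had 84 counts there in 14 windows, 73.0% of its array counts, and P-KO replicate 1 had 0. TDP43 had 40 and 135 counts in WT, or 16.3% and 35.1% of its array counts. hnRNP M had 49 and 153, or 15% and 25.1%.

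The choice of the stretch favours high FOX2 windows, which had 22.2 and 30.4 counts each in WT, against 7.35 and 9.48 in the rest of the array. TDP43 windows had 6.67 and 6.14 counts inside and 5.57 and 5.56 outside, and hnRNP M windows 9.80 and 6.65 inside and 9.23 and 4.57 outside. In the whole libraries, FOX2 windows had a mean of 2.76 and 2.93 counts, TDP43 windows 3.19 and 3.12 and hnRNP M windows 8.44 and 3.81. The lowest count that the lists hold differs by intron. In intron 4 it was 12 and 16 in FOX2 WT, where the median over array labels was 4 and 5. It was 5 in FOX2 P-KO replicate 2, TDP43 WT replicate 1 and TDP43 WT replicate 2. In the hnRNP M WT libraries it was 6 and 4. FOX2 windows of fewer counts in WT intron 4 would not be listed, and their number was not tested.

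**Figure D4:**
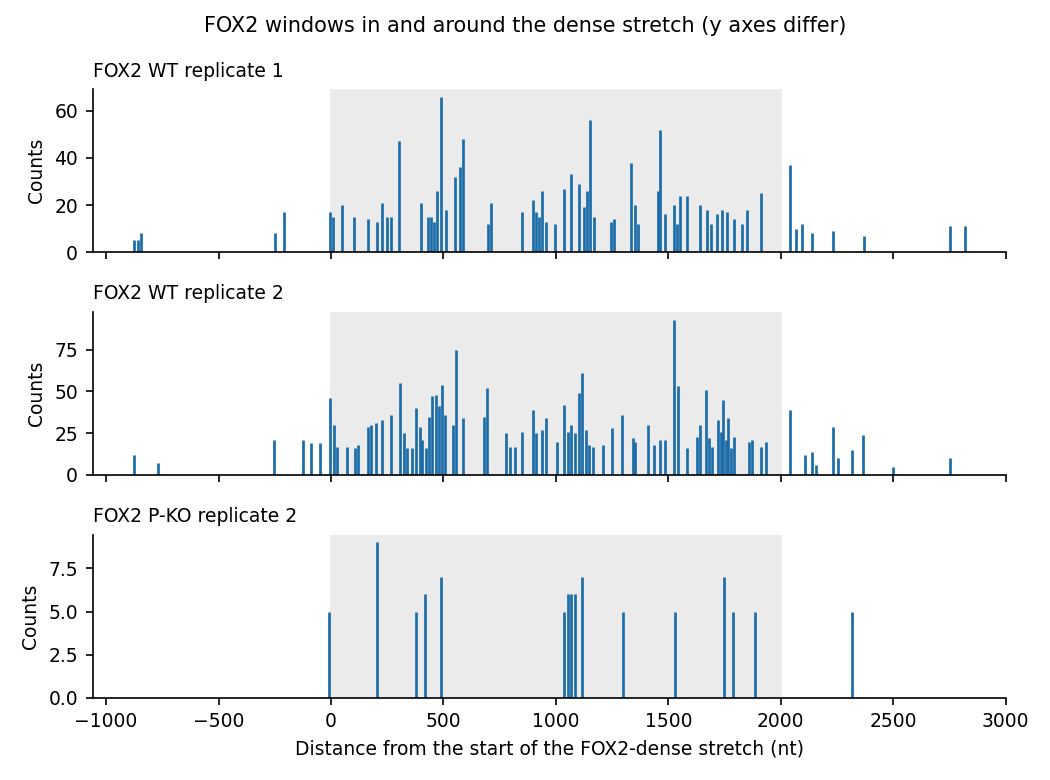
Counts of single FOX2 windows against distance (nt) from the start of the FOX2-dense stretch, shaded, in both WT libraries and P-KO replicate 2, with its own y axis in each panel. The WT libraries hold 57 and 75 windows in the shaded 2000 nt, and P-KO replicate 2 holds 14, none above 9 counts.

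Spacing between neighbouring windows was shortest for FOX2. The median distance was 68.5 and 43.5 nt in FOX2 WT, 407 and 211 nt in TDP43 and 604 and 156.5 nt in hnRNP M. The group means for FOX2, TDP43 and hnRNP M were 56 ± 17.7, 309 ± 139 and 380 ± 316 nt (SD, n = 2). The FOX2 libraries did not overlap the others, and the TDP43 and hnRNP M libraries overlapped. Distances under 50 nt made up 44.5% and 53.3% in FOX2, 14.3% and 22.7% in TDP43 and 8.82% and 23.8% in hnRNP M. The number of windows differed too, at 129 and 181, 43 and 67, and 35 and 123. With the 35 highest windows of each library the medians were 56 and 31 nt in FOX2, 390 and 194.5 nt in TDP43 and 604 and 219 nt in hnRNP M, so FOX2 was again the shortest.

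The stretch was chosen for its FOX2 counts, so short FOX2 distances there are a description. Inside it the median FOX2 distance was 22 and 18 nt, and in the rest of the array 333.5 and 113.5 nt. TDP43 distances were 188 and 53 nt inside and 457 and 704 nt outside, and those of hnRNP M 449.5 and 58.5 nt inside and 604 and 203.5 nt outside. Outside the stretch the FOX2 and hnRNP M libraries overlapped in spacing. Joined where at most 100 nt apart, FOX2 windows formed 56 and 61 clusters, of which 42 and 43 were single windows. The largest cluster had 36 windows over 1072 nt in replicate 1 and 79 windows over 2070 nt in replicate 2, both in intron 4. TDP43 formed 36 and 45 clusters, none with over 6 windows, and hnRNP M 28 and 81, also with at most 6. Distances between clusters had medians of 543 and 346 nt in FOX2, 577 and 737 nt in TDP43 and 759 and 273 nt in hnRNP M.

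**Figure D5:**
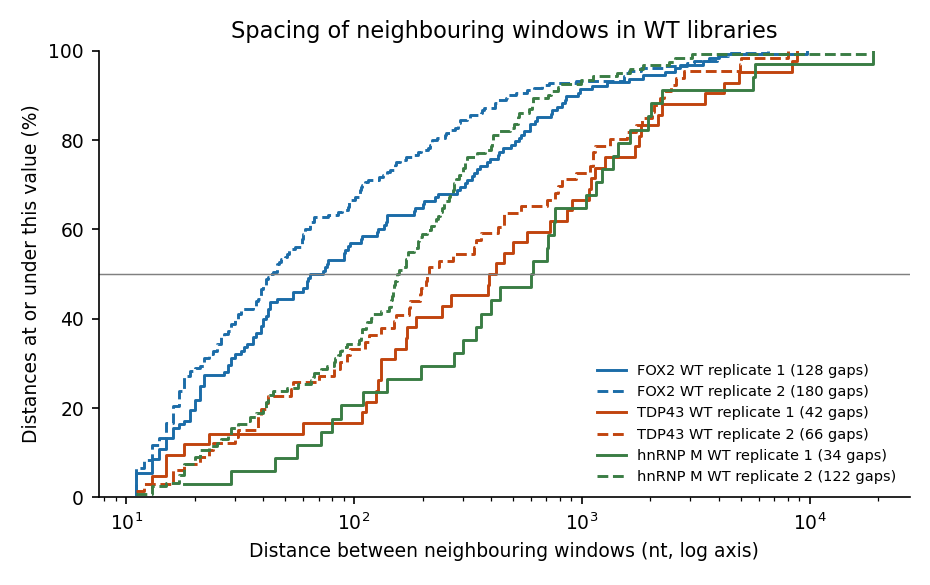
Cumulative share (%) of distances between neighbouring windows of a WT library against the distance (nt, log axis), 1 line per library (solid, replicate 1; dashed, replicate 2). At the 50% line both FOX2 libraries lie left of the others, with medians of 68.5 and 43.5 nt against 156.5 nt or more.

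Within the array, windows of different proteins often lay near each other, and the like measure over whole libraries was not computed. From FOX2 WT windows the nearest TDP43 WT window was a median of 43 and 45 nt away, and the nearest hnRNP M window 35 and 38 nt away. Seen from the other side, the nearest FOX2 window was 25 and 9 nt from TDP43 windows and 51 and 38 nt from hnRNP M windows. TDP43 windows lay 96 and 45 nt from the nearest hnRNP M window, and hnRNP M windows 148 and 163 nt from TDP43. These distances depended on the partner library of most windows. Without TDP43 WT replicate 2 the mean of the FOX2 libraries to TDP43 rose from 44 to 196.5 nt, and without hnRNP M WT replicate 2 that to hnRNP M rose from 36.5 to 225.5 nt.

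Distances to FOX2 inside the dense stretch follow in part from its choice, since FOX2 windows there lie a median of 22 and 18 nt apart. Inside it FOX2 windows lay a median of 16 and 20 nt from TDP43 and 15 and 19 nt from hnRNP M, and outside it 105.5 and 93.5 nt, and 66.5 and 68 nt. From TDP43 windows the median to FOX2 was 1 and 3 nt inside the stretch and 32 and 69 nt outside. From hnRNP M windows it was 3 and 5 nt inside and 61 and 68 nt outside. Of all TDP43 array windows, 30.2% and 52.2% lay within 10 nt of a FOX2 window, and of the hnRNP M windows 31.4% and 28.5%. No whole-library share stands beside these percentages, so whether they are particular to the array was not tested. Of the FOX2 windows, 22.5% and 23.2% lay within 10 nt of a TDP43 window and 21.7% and 21.0% within 10 nt of an hnRNP M window. The number of sites held by all 6 WT libraries was 0. Labels with a window in all 6 were introns 3, 4 and 9.

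Replicates of FOX2 shared more of their array windows than those of TDP43 or hnRNP M. Within 10 nt, so that 11-nt windows share at least 1 nt, 68 of 129 FOX2 windows (52.7%) of WT replicate 1 lay by a window of replicate 2, and 72 of 181 (39.8%) the other way, against 6.80% and 5.6% of the whole libraries. For TDP43 they were 8 of 43 (18.6%) and 8 of 67 (11.9%), against 8.39% and 6.00%. For hnRNP M they were 6 of 35 (17.1%) and 6 of 123 (4.88%), against 1.49% and 0.346%. Most of the 68 shared FOX2 windows lay in the dense stretch, where FOX2 windows of WT replicate 2 covered 41.3% of the length. How much of the sharing there follows from that density was not tested, and the whole-library shares are no baseline for it. Outside the stretch, 19 of the 72 FOX2 windows of WT replicate 1 were shared. TDP43 shared 4 windows there among 37, and hnRNP M shared 4 among 30.

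The highest windows of each protein were ranked by the highest count listed within 10 nt of them in each library. The counts given for them are these values, so neighbouring windows can share 1 peak. The highest FOX2 windows all lay in the dense stretch of intron 4. At 25310990 the FOX2 WT counts were 66 and 54 and the P-KO counts 0 and 7, beside 7 and 5 for TDP43 WT. Within 10 nt of 25312041 and 25312026 the highest listed counts were 23 and 92, and 20 and 93, so replicate 2 was the higher in both. These reaches overlap. The window at 25312041 itself held 12 counts in WT replicate 1, and its partner at 25312042 in WT replicate 2 held 53. At 25311056 the counts were 32 and 75, and at 25310809 47 and 55. In CPM, the window at 25310990 stood at 244 ± 81.1 and that at 25310809 at 203 ± 17.2 (SD, n = 2). P-KO replicate 1 was listed at 0 at all 5.

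The highest TDP43 windows lay in introns 3, 9 and 4. Within 10 nt of the neighbouring intron 3 windows at 25309653, 25309642 and 25309629 the highest listed counts were 19 and 5, 19 and 0, and 16 and 0. Their order thus rests on replicate 1. These reaches overlap, and the 3 windows of TDP43 WT replicate 1 from 25309629 to 25309657 held 36 counts in all. The window at 25323614 in intron 9 had 8 and 14 counts (44 ± 7.76 CPM), listed at 0 in FOX2 WT but with 4 counts in FOX2 P-KO replicate 2. At 25311570 in intron 4 TDP43 had 5 and 10 counts and FOX2 33 and 30 in WT and 6 in P-KO replicate 2. TDP43 P-KO libraries were listed at 0 at all 5.

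The highest hnRNP M windows were spread over introns 15, 17 and 4. At 25338221 in intron 17 it had 9 and 24 counts (170 ± 34.2 CPM), with 0 for both other proteins. At 25312047 in intron 4 it had 12 and 15 counts, beside 24 and 53 for FOX2 and 0 and 7 for TDP43. At 25311275 it had 8 and 15 counts, and FOX2 0 and 25. The windows at 25333367 in intron 15 and 25314349 in intron 4 had 23 and 14 counts in replicate 1 and 0 in replicate 2. Neither P-KO library of hnRNP M had a count at any of the 5.

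Most array counts left in P-KO came from 1 library, the deepest, so what remained is not compared between proteins. FOX2 P-KO replicate 2 had 22 windows, of which 17 lay within 5 nt and 19 within 11 nt of a FOX2 WT window. Its 10 highest windows all lay in intron 4. The highest, at 25310707, had 9 counts, against 13 and 31 in WT. The windows at 25310992, 25311619 and 25312249 had 7 counts each, those at 25310921, 25311557, 25311570 and 25311587 had 6 each, and those at 25310494 and 25310881, the first by position of 8 windows with 5 counts, completed the 10. FOX2 P-KO replicate 1 had 1 window, of 2 counts, in intron 14, 180 nt from the nearest FOX2 WT window. TDP43 P-KO replicate 1 had 1 window of 2 counts and replicate 2 had 7 windows of 2 or 3 counts, each under another label, and 0 of those 7 lay within 11 nt of a TDP43 WT window.

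The FOX2 windows of P-KO replicate 2 lay mostly where WT windows were dense. By length, the windows of each WT library alone cover 31.4% and 41.3% of the stretch. The nearness counts above took both WT libraries together, so these percentages are no baseline for them. FOX2 P-KO replicate 2 had 648651 window counts in the whole library and replicate 1 had 232174, beside 115 and 2 array counts, and the part of depth in that difference was not tested.

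Between proteins within WT cells, intron 4 alone passed the threshold in edgeR. By 10 kb bins 0 of 6 array bins passed between FOX2 and TDP43, FOX2 and hnRNP M, or TDP43 and hnRNP M in edgeR, where 0.284%, 2.63% and 0.104% of all bins did (0.246%, 2.63% and 0.104% higher in the first). The unadjusted p by edgeR was under 0.05 at 25310001 for FOX2 against both others, and in 0 array bins for TDP43 against hnRNP M, where 1122, 1923 and 1733 of the 10563 bins were under 0.05 in the 3 pairs. DESeq2 called 1 of the 6 bins higher in FOX2 than in TDP43 and 0 in the other pairs. By label, FOX2 was higher than TDP43 in intron 4 by 4.30 ± 0.94 (log2, SE; edgeR adjusted p = 0.00177; background 2.45%, or 2.04% higher in FOX2). This call was lost without FOX2 WT replicate 2 or TDP43 WT replicate 1 (adjusted p 0.0819 to 0.166). FOX2 was also higher than hnRNP M there, by 3.23 ± 0.89 (edgeR adjusted p = 0.025; background 2.33%, all of it higher in FOX2). This call did not hold in 7 of 20 alternatives. It was lost without TMM factors, in DESeq2, without a filter and with at least 20 counts asked for. The same held without FOX2 WT replicate 2 or hnRNP M WT replicate 1. By number of windows the value turned to -0.069 (edgeR adjusted p = 0.989). TMM factors by label were 0.943 and 0.800 in FOX2 WT and 2.17 and 1.09 in hnRNP M WT. Their part in the value was not tested. DESeq2 called 1 other label in that pair, lower in FOX2. Between TDP43 and hnRNP M 0 of 17 labels passed in edgeR (background 0.593%, or 0.57% higher in TDP43), with introns 14 and 15 at an unadjusted p under 0.05, as were 884 of all 8425 labels, and DESeq2 called 0.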

How the data were processed

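Crosslink sites of FOX2, TDP43 and hnRNP M were analysed in 12 iCLIP libraries, 2 for each protein and genotype. The authors deposited, per library, lists of single nucleotides with a count of reads over 11 nt around each and a p-value or q-value no higher than 0.05. The submitters' processing notes name Bowtie and hg19. Whether counts were collapsed by barcode, and how reads matching several repeats were placed, is not given in the sources used here. From the lists, windows were kept from the highest count down at least 11 nt apart, and summed in strand-specific 10 kb bins and by label over the whole table. They were tested with edgeR 4.0.16 (filterByExpr, TMM, quasi-likelihood test, Benjamini-Hochberg adjustment; 12 libraries in 1 fit) in R 4.3.3, tested on simulated data, with DESeq2 1.42.0, other filters, windows and bins, the replicate block and each library left out as alternatives. Shares carry exact 95% Clopper-Pearson intervals that cover counting error only. The text names every array bin tested, labels with a window in at least 2 WT libraries, the 5 highest windows per protein and the 10 highest in P-KO; other labels and windows beside a result were chosen after their values were seen. The array, its limits and the tests were chosen with earlier results of these data known. No sequence of the build was given, so none is printed.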

Additional observations from a re-analysis of the deposited data

How the results depend on the processing

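The drop of the array share kept its direction in every alternative, from -7.67 to -6.41 (log2) with 1 library left out. Median spacing with 1 library left out ranged from 43.5 to 68.5 nt for FOX2, 211 to 407 nt for TDP43 and 156.5 to 604 nt for hnRNP M, and FOX2 spacing rose from 56 to 98.25 nt with windows at least 25 nt apart. TDP43 spacing fell from 309 to 192.25 nt with windows of at least 5 counts. The distance from FOX2 to TDP43 (44 nt) was 54.5 nt with windows 25 nt apart, 48.75 nt with windows of at least 5 counts, 32 nt with the 35 highest windows, and 43 to 196.5 nt with 1 library left out. That to hnRNP M (36.5 nt) was 42.75, 57 and 22.5 nt, and 35 to 225.5 nt. Of the array bins, the common effect called 5, but 3 without a filter, 11 of 2 kb, and 3 to 5 with 1 library left out. FOX2 called 1, but 3 with DESeq2 or without TMM factors, 2 with at least 20 counts, 0 with robust dispersion or 2 kb bins, 4 by number of windows, and 0 to 3 with 1 left out. TDP43 called 0, but 1 with DESeq2 or without TMM factors, 3 by number of windows, and 0 to 1 with 1 left out. hnRNP M called 2, but 4 with DESeq2, 1 without a filter, 0 with at least 20 counts, robust dispersion or 2 kb bins, and 0 to 4 with 1 left out. Between FOX2 and TDP43 the 0 bins became 1 with DESeq2, without TMM factors or by number of windows, and 0 to 1 with 1 left out; by number of windows FOX2 against hnRNP M gave 1 and TDP43 against hnRNP M 2. The common effect called 7 labels, 3 by number of windows and 5 to 11 with 1 left out. FOX2 against TDP43 called 1 label, 0 without a filter or by number of windows, and 0 to 1 with 1 left out. Intron 4 between FOX2 and hnRNP M turned to -0.069 by number of windows. The cause of these changes was not tested. Whether replicate numbers pair the libraries is not settled. Deviations from group means correlated between groups at 0.00776 to 0.132 by bin and 0.00888 to 0.13 by label. With the replicate block FOX2 called 3 array bins and FOX2 against TDP43 1. Over the whole table these calls rose from 2 to 7 and from 30 to 121 bins. The share fell by 7.04 (exact permutation p = 0.03125, the smallest possible), and the other counts of array calls stayed within 1.5 times. Low counts limit the P-KO values, since array windows there hold 2 to 9 counts or are listed at 0.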
